A study of Mus musculus with 21 samples.

Results

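The genes described here are the mouse translation initiation factors, taken as all protein-coding genes of the GENCODE vM21 annotation whose symbol is Eif followed by a digit. There were 55 such genes, and 52 of them had a transcript in the deposited merged long-read annotation, out of 10917 genes of any type with such a transcript. These 52 genes held 118 of the 22612 merged transcripts. Eif2ak2, Eif4ebp2 and Eif4ebp3 had no merged transcript, so they have no value here. The choice used gene symbols only and no measured level.

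The study followed the transcriptome of mouse gametes and embryos before implantation with long and short reads. Sperm came from the epididymis of DBA/2J males, which the collection protocol names DBA/2N. Oocytes were mature MII cells of superovulated C57/BL6J females aged 3 to 5 weeks, taken at 20 h after hCG, and embryos came from C57/BL6J females mated with DBA/2J males. Embryos were cultured in KSOM medium and lysed at 24 to 26 h after hCG (1-cell), 46 to 48 h (2-cell), 54 to 58 h (4-cell), 68 to 70 h (8-cell) or 94 to 96 h (blastocyst). No group carried a mutation or a drug treatment. Each of the 7 stages had 2 short-read libraries of amplified cDNA from pooled cells and 1 long-read pool. The p-values measure only the spread between the 2 libraries of a stage, pooled over all stages in a fit.

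Translation of most mRNAs starts when the eIF4F complex, made of the cap-binding protein eIF4E, the scaffold eIF4G and the RNA helicase eIF4A, brings an mRNA to a small ribosomal subunit that carries eIF3 and the initiator tRNA bound to eIF2. The small subunit scans to a start codon under the control of eIF1, eIF1A and eIF5, eIF2 leaves and is recharged by eIF2B, and eIF5B joins the large subunit. The oocyte and the 1-cell embryo live on stored maternal mRNA and switch its translation on and off, while the 2-cell embryo starts its own major wave of transcription.

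Levels are given in TPM (a level per transcript length, scaled to the same total in every library), summed over the transcripts of a gene as the authors deposited them. TPM is a share of each library, so fewer cells of a type and less RNA per cell cannot be told apart, and it keeps no counts, so the counting error behind a value was not computed. The sperm marker genes summed to 14000 and 20770 TPM in the sperm libraries and to at most 17.0 TPM elsewhere, the oocyte markers to 4500 and 16440 TPM in oocytes, and the blastocyst markers to 10140 and 37300 TPM in blastocysts. The 2-cell markers summed to 58.4 and 456 TPM in the 2-cell libraries and to 610 and 570 TPM in the 4-cell libraries, so they did not peak at the stage they name. Of 5 epididymis and blood markers, 4 had a transcript, and these summed to 2210 and 508 TPM in sperm and to at most 2.54 TPM in any other library. Of 5 cumulus cell markers, only Amhr2 had a transcript. It stood at no more than 0.206 TPM in the oocyte and 1-cell libraries, at 44.9 and 49.9 TPM at 2-cell, at 99.2 and 107 TPM at 4-cell, and at 23.1 and 34.7 TPM at 8-cell, so it was highest where many members were highest. Its part in the results was not tested. The median SD of a member between the 2 libraries of a stage, on the log2(TPM + 1) scale, was lowest at 4-cell (0.133) and highest in sperm (1.03), with 0.726 at 2-cell.

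Of the 10 member isoforms that changed their share from 1-cell to 2-cell, 4 differ from another isoform of their gene by skipping or including 1 of 3 coding exons, and the sequences of these exons are shown first. In Eif4a2 the changed isoform that skips the exon differs from the one that holds it in other ways as well. Capitals mark the exon that is skipped or included, and lower case marks 20 bases of the neighbouring exons on each side, all read 5′ to 3′ on the gene's strand from the GENCODE vM21 transcripts (GRCm38, the assembly of mm10). The Eif4h exon has 60 bases at chr5:134624441-134624500 (minus strand), the Eif5 exon has 162 bases at chr12:111542680-111542841 (plus strand), and the Eif4a2 exon has 140 bases at chr16:23109120-23109259 (plus strand).
Eif4h, exon 5 of 7: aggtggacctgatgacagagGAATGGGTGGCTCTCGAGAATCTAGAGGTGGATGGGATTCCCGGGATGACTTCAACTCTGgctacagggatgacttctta
Eif5, exon 9 of 12: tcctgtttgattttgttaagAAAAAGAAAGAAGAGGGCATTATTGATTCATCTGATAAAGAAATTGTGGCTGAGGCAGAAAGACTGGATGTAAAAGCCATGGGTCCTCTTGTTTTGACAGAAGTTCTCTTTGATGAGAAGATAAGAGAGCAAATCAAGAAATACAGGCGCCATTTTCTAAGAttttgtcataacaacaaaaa
Eif4a2, exon 4 of 11: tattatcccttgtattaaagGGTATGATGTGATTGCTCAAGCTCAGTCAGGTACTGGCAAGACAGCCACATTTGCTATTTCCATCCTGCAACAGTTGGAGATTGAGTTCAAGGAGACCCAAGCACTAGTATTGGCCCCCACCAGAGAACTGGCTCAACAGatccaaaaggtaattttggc
The Eif4h and Eif5 exons are whole numbers of codons long, so that skipping them keeps the reading frame, and the Eif4a2 exon is not.

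All 52 genes with a transcript reached 1 TPM in both 4-cell and both 8-cell libraries, against 43 and 44 of them in the oocyte libraries. The median level over the 52 genes was 15.9 and 13.8 TPM in the oocyte libraries, 32.5 and 14.6 TPM at 1-cell, 59.4 and 62.0 TPM at 2-cell, and 158 and 136 TPM at 4-cell. It was 124 and 121 TPM at 8-cell and 103 and 53.5 TPM in blastocysts. From oocyte to blastocyst, 19 genes had their highest mean at 4-cell and 13 at 8-cell, while 28 had their lowest mean in the oocyte. Of all 10000 genes tested, 21.4% were highest at 4-cell, 10.2% were highest at 8-cell and 42.5% were lowest in the oocyte. Both libraries stood above every library of the other 5 of these stages for 8 of the 52 members at 4-cell and for 4 in the oocyte, against 11.0% and 2.9% of all genes. The summed level did not follow the median: the 52 genes took 1.23% and 1.59% of all TPM in the oocyte libraries, mostly through the few abundant genes described next, and 1.78% and 1.38% at 4-cell.

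**Figure D1:**
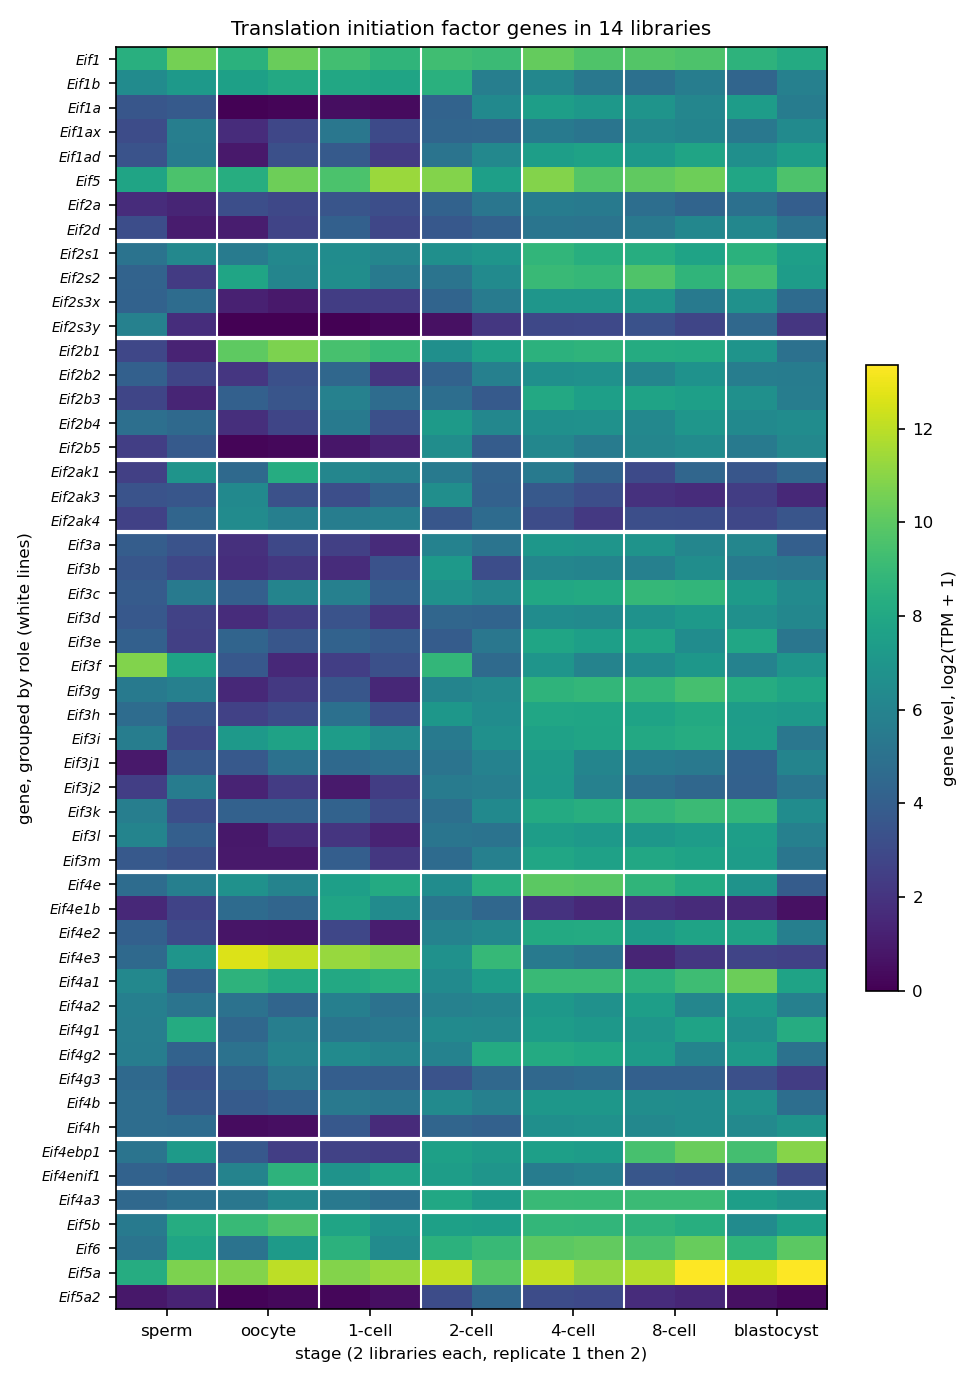
Level of each of the 52 genes (rows, grouped by role between white lines) as log2(TPM + 1), by color, in the 14 short-read libraries (columns, 2 per stage). Many rows are darker in the oocyte and 1-cell columns than from 4-cell on, and a few, such as Eif4e3 and Eif2b1, run the other way.

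The cap-binding proteins exchanged places across the 7 stages. Eif4e3, an atypical member of the eIF4E family, stood at 6376 and 4403 TPM in the oocyte libraries, at 2494 and 1940 TPM at 1-cell, and at 106 and 498 TPM at 2-cell. It stood at 45.0 and 33.8 TPM at 4-cell, at 1.61 and 3.43 TPM at 8-cell, and at 5.58 and 4.90 TPM in blastocysts. No 2 neighbouring stages overlapped from oocyte to 8-cell. It fell by 3.25 on the log2(TPM + 1) scale from 1-cell to 2-cell (SE 0.783, adjusted p = 0.00637, limma with Benjamini-Hochberg adjustment) and fell by 3.56 from 4-cell to 8-cell (SE 0.783, adjusted p = 0.0367). The first call was lost when only the 4 libraries of the comparison were fitted (adjusted p = 0.0639) or the stages were weighted by their spread (adjusted p = 0.0525). The second was lost without either library of oocyte, 1-cell, 4-cell, 8-cell or blastocyst. It was also lost with the replicate block and with quantile normalization (adjusted p = 0.0919 for the latter). The transcripts of Eif4e3 also overlap Gm20696, a second annotated coding gene on the same strand, and their reads cannot be told apart.

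Eif4e, the canonical cap-binding protein of eIF4F, stood at 108 and 62.7 TPM in oocytes, at 188 and 285 TPM at 1-cell, at 88.6 and 338 TPM at 2-cell and at 1020 and 954 TPM at 4-cell. It stood at 424 and 282 TPM at 8-cell and at 117 and 14 TPM in blastocysts. Both 4-cell libraries were above all others, but no step of Eif4e passed the test. Its change from 2-cell to 4-cell was 2.50 on the log2(TPM + 1) scale (SE 0.95, adjusted p = 0.131) and from 8-cell to blastocyst -3.05 (SE 0.95, adjusted p = 0.11).

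Eif4e2, known as 4EHP and as a cap binder that represses translation, stood at 0.673 and 0.643 TPM in oocytes, at 6.26 and 1.10 TPM at 1-cell, at 59.7 and 74.4 TPM at 2-cell and at 278 and 285 TPM at 4-cell. The 1-cell and 2-cell libraries did not overlap, and it rose by 4.11 on the log2 scale between them (SE 0.794, adjusted p = 0.00168). Eif4e1b, an oocyte-enriched relative of Eif4e, stood at 24.8 and 19.2 TPM in oocytes, at 219 and 86.1 TPM at 1-cell, at 35.0 and 21.3 TPM at 2-cell and at 2.92 and 1.92 TPM at 4-cell. Its 1-cell level was above both neighbours in both libraries. Its change from oocyte to 1-cell was 2.60 (SE 0.696, adjusted p = 0.151), and it then fell by 2.29 to 2-cell (SE 0.696, adjusted p = 0.0218) and fell by 3.07 to 4-cell (SE 0.696, adjusted p = 0.0362). The first of these falls was lost without 1-cell replicate 1 or 2-cell replicate 2, and the second without either library of oocyte, 1-cell, 4-cell or 8-cell. Both were also lost with only the 4 libraries of the comparison fitted and with stages weighted by their spread. The second was lost with a pseudocount of 0.1 and with the replicate block as well. The highest adjusted p over these 4 settings was 0.158 for the first fall and 0.224 for the second.

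As shares of the summed TPM of these 4 genes, Eif4e3 made 98.0% and 98.2% in the oocyte libraries, 85.8% and 83.9% at 1-cell, and 36.6% and 53.4% at 2-cell. Eif4e made 75.8% and 74.9% at 4-cell, and Eif4e2 made 62.7% and 73.0% in blastocysts. The most abundant cap-binding gene was therefore a different gene in the oocyte, the 4-cell embryo and the blastocyst, in both libraries of each.

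Of the 4 genes taken as eIF4E-binding repressors, only 2 had a value. Eif4ebp1, the repressor that mTOR phosphorylation releases from eIF4E, stood at 11.9 and 4.63 TPM in oocytes, at 5.13 and 4.58 TPM at 1-cell, at 191 and 153 TPM at 2-cell and at 182 and 163 TPM at 4-cell. It stood at 712 and 1250 TPM at 8-cell and at 665 and 1921 TPM in blastocysts. The 1-cell and 2-cell libraries did not overlap, and its rise of 4.88 (SE 0.746, adjusted p = 0.000394) was the largest of any member at this step on the log2(TPM + 1) scale. By the ratio of mean TPM it rose 35.4-fold, less than Eif1a (137-fold), Eif2b5 (47.6-fold), Eif5a2 (45.5-fold) and Eif3f (35.9-fold). Its change from 4-cell to 8-cell was 2.45 and did not pass in the fit over all 12 libraries (adjusted p = 0.118), and passed when the stages were weighted by their spread. Eif4enif1, the eIF4E transporter that keeps maternal mRNA silent in oocytes, stood at 62.5 and 389 TPM in oocytes, at 114 and 199 TPM at 1-cell, at 172 and 124 TPM at 2-cell and at 10.9 and 9.40 TPM at 8-cell. No step of Eif4enif1 passed the test, and no merged transcript held its whole annotated coding sequence.

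**Figure D2:**
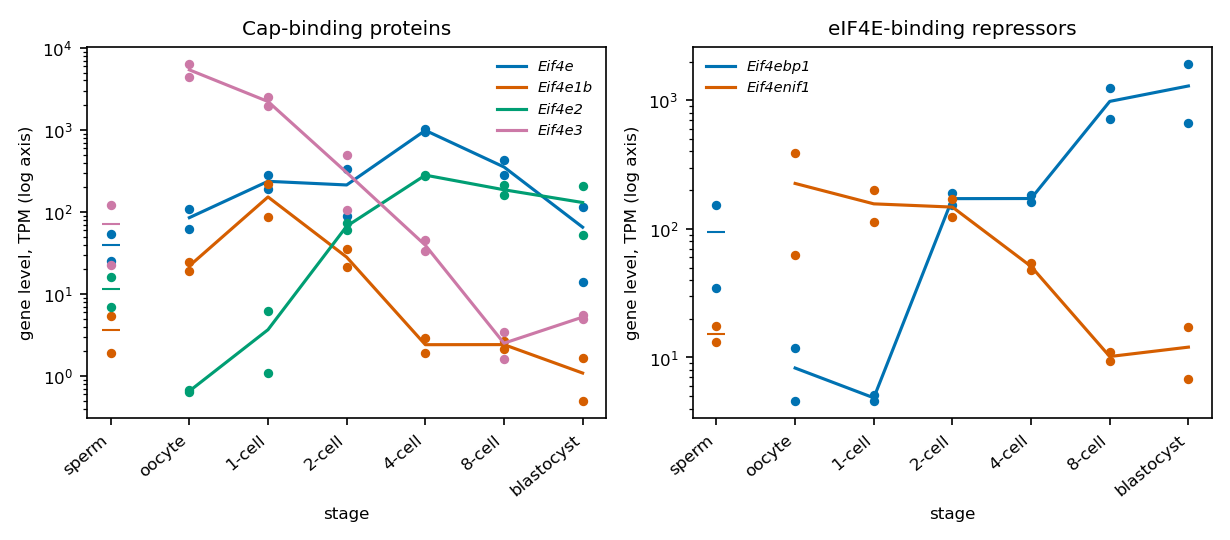
Level of the cap-binding genes (left) and of the eIF4E-binding repressors (right) in TPM on a log axis at each stage, with a point per library, lines through the means from oocyte to blastocyst and a dash at the sperm mean. Eif4e3 is the highest cap-binding gene in the oocyte (4403 and 6376 TPM) and Eif4e at 4-cell (954 and 1020 TPM), while Eif4ebp1 is near 5 TPM at 1-cell and above 150 TPM from 2-cell on.

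The other parts of eIF4F varied less. Eif4a1, the main eIF4A helicase, stood at 389 and 273 TPM in oocytes, 83.5 and 163 TPM at 2-cell and 521 and 534 TPM at 4-cell, and made 92.4% and 93.3% of the summed TPM of Eif4a1 and Eif4a2 in the oocyte libraries. Eif4a2, the second eIF4A, stood at 32.0 and 19.6 TPM in oocytes and at 139 and 108 TPM at 4-cell. No step of either helicase passed the test. Of the scaffolds, Eif4g1 stood at 20.8 and 51.0 TPM in oocytes and at 163 and 138 TPM at 4-cell, and Eif4g2, which lacks the eIF4E-binding site, stood at 31.6 and 61.8 TPM and at 281 and 246 TPM. Eif4g3 stood between 4.31 and 37.7 TPM in all libraries from oocyte to blastocyst. Eif4h, an eIF4A cofactor, stood at 0.343 and 0.446 TPM in oocytes, 12.0 and 2.09 TPM at 1-cell and 97.8 and 108 TPM at 4-cell. Eif4a3, the helicase of the exon junction complex, stood at 41.7 and 28.1 TPM at 1-cell and at 251 and 156 TPM at 2-cell, and rose by 2.50 (SE 0.692, adjusted p = 0.0137). That call was lost without 1-cell replicate 2. It was also lost with only the 4 libraries of the comparison fitted and with stages weighted by their spread (highest adjusted p = 0.116).

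The subunits of eIF3, the largest initiation factor, which holds the mRNA and the small ribosomal subunit together, were low before the 2-cell stage. The median of the 14 subunit means was 5.27 TPM in oocytes, 7.91 TPM at 1-cell, 51.4 TPM at 2-cell, 183 TPM at 4-cell, 153 TPM at 8-cell and 103 TPM in blastocysts. From 1-cell to 2-cell 6 of the 14 rose and 0 fell, with a median change of 2.40 on the log2 scale. Of all genes, 26.1% were called higher and 6.2% lower at this step, with a median change of 0.72. Eif3g, a core subunit, stood at 10.7 and 1.79 TPM at 1-cell and at 64.4 and 76.6 TPM at 2-cell, and rose by 3.64 (SE 0.756, adjusted p = 0.00266). Eif3a, the largest subunit, stood at 4.77 and 2.14 TPM and then at 59.2 and 34.5 TPM, and rose by 3.44 (SE 0.791, adjusted p = 0.00491), a call that was lost without 1-cell replicate 2 (adjusted p = 0.0535). Eif3l, a peripheral subunit, stood at 3.24 and 1.55 TPM and then at 35.7 and 32.5 TPM, and rose by 3.41 (SE 0.719, adjusted p = 0.00293). The groups did not overlap for any of these.

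Eif3f, a subunit of the MPN domain family, stood at 4.52 and 8.66 TPM at 1-cell and at 450 and 23.6 TPM at 2-cell, so that its 2-cell libraries differed far more than its 1-cell libraries. It rose by 3.85 (SE 1.12, adjusted p = 0.0179), and the call was lost without 1-cell replicate 1, 1-cell replicate 2 or 2-cell replicate 1. It was also lost with quantile normalization and with stages weighted by their spread (highest adjusted p = 0.127). Eif3i, a scaffold subunit, was the exception to the low maternal levels, at 144 and 203 TPM in oocytes and at 164 and 83.7 TPM at 1-cell. Eif3j1 and Eif3j2 are near-identical copies of the loosely bound j subunit, so the division of reads between them is uncertain. Eif3j1 stood at 22.4 and 27.5 TPM at 1-cell and at 34.7 and 60.5 TPM at 2-cell. Eif3j2 stood at 0.981 and 4.43 TPM and then at 46.6 and 50.8 TPM, and rose by 3.92 (SE 0.766, adjusted p = 0.0018). Eif3j1 made 88.8% and 88.0% of the summed TPM of both genes in oocytes, and 51.2% and 53.1% at 4-cell.

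The initiator tRNA is carried by eIF2, whose 3 subunits are encoded by Eif2s1, Eif2s2 and the sex-linked pair Eif2s3x and Eif2s3y. In oocytes Eif2s1 stood at 45.3 and 73.2 TPM and Eif2s2 at 232 and 66.3 TPM, while Eif2s3x stood at 1.36 and 0.889 TPM and Eif2s3y was listed at 0 in both libraries. Eif2s3x stood at 4.37 and 4.12 TPM at 1-cell, 19.0 and 45.8 TPM at 2-cell and 129 and 127 TPM at 4-cell. It rose by 2.55 from 1-cell to 2-cell (SE 0.813, adjusted p = 0.0275). The call was lost without 1-cell replicate 1, 1-cell replicate 2 or 2-cell replicate 2. It was also lost with quantile normalization, with only the 4 libraries of the comparison fitted and with stages weighted by their spread (highest adjusted p = 0.164). Counting only the whole transcript, Eif2s3x stood at 0.212 and 2.31 TPM at 1-cell and at 2.28 and 20.2 TPM at 2-cell. The libraries of these stages then overlapped. Eif2s3y, the copy on the Y chromosome, stood at 0.499 and 3.41 TPM at 2-cell and at 6.47 and 6.62 TPM at 4-cell, and no step passed the test. The 2 copies are alike in sequence, so reads may be divided between them. The SD of the 3 subunit means on the log2(TPM + 1) scale, with Eif2s3x as the third, was 3.24 in oocytes and 0.873 at 2-cell. It was then higher again, at 1.04 at 4-cell, 1.45 at 8-cell and 1.37 in blastocysts.

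The 5 subunits of eIF2B, the exchange factor that recharges eIF2 with GTP, were even further apart in the oocyte. Eif2b1, which encodes the regulatory alpha subunit, stood at 1059 and 1665 TPM in oocytes, 716 and 505 TPM at 1-cell, 98.0 and 195 TPM at 2-cell and 386 and 405 TPM at 4-cell. The other 4 subunits stood between 0.149 and 16.1 TPM in the oocyte libraries. Eif2b5, which encodes the catalytic epsilon subunit, stood at 0.149 and 0.201 TPM in oocytes, 0.726 and 1.51 TPM at 1-cell and 92.9 and 13.8 TPM at 2-cell. It rose by 4.16 at the last of these steps (SE 0.819, adjusted p = 0.00191), and with quantile normalization the adjusted p was 0.0518. Eif2b4 (delta) stood at 44.4 and 8.59 TPM at 1-cell and at 154 and 71.9 TPM at 2-cell, and rose by 2.35 (SE 0.806, adjusted p = 0.0382). That call was lost with quantile normalization (adjusted p = 0.0835), with the replicate block (adjusted p = 0.0541), or without 1-cell replicate 2, 2-cell replicate 1 or either library of 4-cell or 8-cell. With only the 4 libraries of the comparison fitted or stages weighted by their spread it was lost too (highest adjusted p = 0.192). Eif2b3 (gamma) stood at 27.2 and 12.8 TPM at 2-cell and at 262 and 185 TPM at 4-cell, and rose by 3.49 (SE 0.721, adjusted p = 0.0283). The rise of Eif2b3 was lost without either library of 4-cell or 8-cell. It was also lost with only the 4 libraries of the comparison fitted and with stages weighted by their spread (highest adjusted p = 0.224). The SD of the 5 subunit means on the log2 scale was 3.85 in oocytes and 2.97 in 1-cell embryos. It was 1.15 in 2-cell and 1.07 in 4-cell embryos, and then 0.81 in 8-cell embryos and 0.326 in blastocysts. Eif2b1 was the highest of the 5 from oocyte to 8-cell and stood at 120 and 30.7 TPM in blastocysts, where the 5 means lay between 47.8 and 83.8 TPM.

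**Figure D3:**
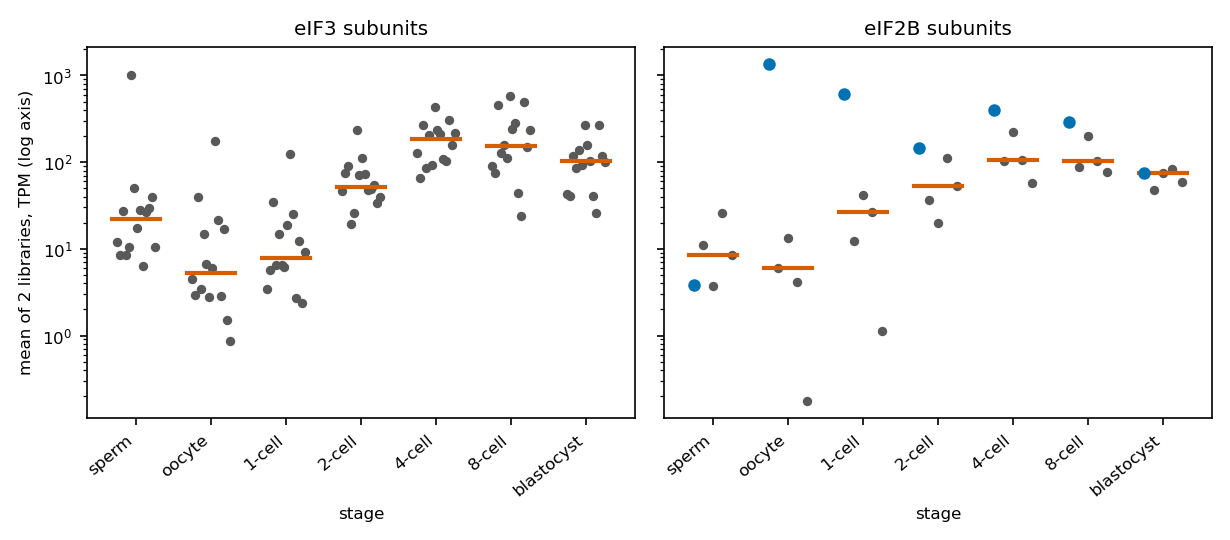
Mean of 2 libraries in TPM on a log axis for each of 14 eIF3 subunits (left) and 5 eIF2B subunits (right) at each stage, with a point per subunit, a bar at the median and Eif2b1 in blue. The eIF3 median is 5.27 TPM in oocytes and 183 TPM at 4-cell, and the eIF2B subunits span 0.175 to 1362 TPM in oocytes and 47.8 to 83.8 TPM in blastocysts.

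The kinases that phosphorylate eIF2 and so slow initiation under stress showed no called step between oocyte and blastocyst. Eif2ak4 (GCN2, which senses amino acid shortage) stood at 87.4 and 54.1 TPM in oocytes, 49.4 and 52.6 TPM at 1-cell, 11.1 and 24.7 TPM at 2-cell and 7.71 and 3.63 TPM at 4-cell. With quantile normalization, Eif2ak4 was called from 1-cell to 2-cell at -2.33. Eif2ak1 (HRI, which senses heme) stood at 22.9 and 303 TPM in oocytes and Eif2ak3 (PERK, of the endoplasmic reticulum) at 80.5 and 8.88 TPM, with the higher value in a different oocyte library for each. None of these 3 genes had a merged transcript with its whole coding sequence.

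Among the factors that choose the start codon, the 2 eIF1A genes showed different courses. Eif1a, an autosomal gene, stood at 0.0582 and 0.154 TPM in oocytes, 0.399 and 0.315 TPM at 1-cell, 17.8 and 80.2 TPM at 2-cell and 180 and 138 TPM at 4-cell, and rose by 4.85 from 1-cell to 2-cell (SE 0.817, adjusted p = 0.000702). Eif1ax, the X-linked copy, stood at 2.27 and 6.30 TPM in oocytes, 38.6 and 7.13 TPM at 1-cell, 19.4 and 20.1 TPM at 2-cell and 42.9 and 35.5 TPM at 4-cell. Eif1ax made 97.5% and 97.6% of the summed TPM of both genes in oocytes and 19.3% and 20.4% at 4-cell. The copies resemble each other in sequence, so the division of reads is uncertain. Eif1ad, an eIF1A-domain protein, stood at 12.8 and 3.95 TPM at 1-cell and at 34.7 and 74.0 TPM at 2-cell, and rose by 2.65 (SE 0.848, adjusted p = 0.0281). That call was lost without 1-cell replicate 2 or 2-cell replicate 2 and with quantile normalization (adjusted p = 0.0582). With only the 4 libraries of the comparison fitted or stages weighted by their spread it was lost too (highest adjusted p = 0.144).

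Eif1, which guards against wrong start codons, was among the most abundant members throughout, between 287 and 1250 TPM from oocyte to blastocyst. Its paralog Eif1b made 33.7% and 17.7% of the summed TPM of both genes in oocytes and 5.61% and 4.71% at 4-cell. Eif5, which triggers GTP hydrolysis on eIF2, stood at 322 and 1336 TPM in oocytes, 752 and 2553 TPM at 1-cell and 1852 and 185 TPM at 2-cell. The 2 libraries of the oocyte, 1-cell and 2-cell stages lay far apart, and no step passed the test. Eif2a and Eif2d, alternative carriers of initiator tRNA, stood between 6.43 and 8.30 TPM and between 1.07 and 5.77 TPM in oocytes.

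Of the factors of subunit joining and later steps, Eif5a, which helps the ribosome through stalling peptides, was the most abundant member in every 2-cell, 4-cell, 8-cell and blastocyst library, at 4501 and 908 TPM at 2-cell and 6108 and 10446 TPM in blastocysts. Its paralog Eif5a2 stood at 0.18 and 0.453 TPM at 1-cell, 7.68 and 21.1 TPM at 2-cell, 7.69 and 6.70 TPM at 4-cell and 0.534 and 0.166 TPM in blastocysts. Eif5a2 rose by 3.40 from 1-cell to 2-cell (SE 0.561, adjusted p = 0.000618), yet it made at most 2.27% of the summed TPM of both genes. Eif6, which keeps free large ribosomal subunits from joining, stood at 33.5 and 152 TPM in oocytes and 1028 and 1142 TPM at 4-cell. Eif5b, the subunit-joining GTPase, stood at 502 and 781 TPM in oocytes and 223 and 112 TPM at 1-cell.

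Counted over the steps, most calls fell between 1-cell and 2-cell, as they did for all genes. In simulated data (see the processing), the steps into and out of 2-cell held more false calls than the adjusted threshold allows. From oocyte to 1-cell 0 of the 52 members were called higher and 0 lower with limma at an adjusted p under 0.05, against 0.33% and 0.05% of the 10000 genes tested. At an unadjusted p under 0.05, 5 members were higher and 1 lower at this step. Both 1-cell libraries stood above both oocyte libraries for 15 members and below them for 5, against 28.6% and 9.02% of all genes. Leaving out either 2-cell library brought Eif4e1b past the threshold at this step (2.60, highest adjusted p = 0.0452).

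From 1-cell to 2-cell 15 of the 52 members rose and 2 fell, against 26.1% and 6.2% of all genes, so the share of members that rose was close to that of all genes. The largest rises on the log2(TPM + 1) scale were those of Eif4ebp1, Eif1a, Eif2b5 and Eif4e2, an order that differs by the ratio of mean TPM given above, and the 2 falls were those of Eif4e3 and Eif4e1b, so that the calls in both directions include cap-binding genes. Both 2-cell libraries stood above both 1-cell libraries for 27 members and below them for 6, against 42.7% and 15.4% of all genes. The median change was 1.16 for the members and 0.72 for all genes on this scale, and 30 of the 52 members lay above the median of all genes. With quantile normalization, which moves the median of all genes to -0.12 and of the members to 0.52, 10 members rose and 4 fell, against 15.9% and 17.6% of all genes, with Eif2b1 (-2.19) and Eif2ak4 among the falls. With stages weighted by their spread 9 rose and 0 fell, against 13.7% and 1.61% of all genes, and without 1-cell replicate 2 there were 8 rises, against 13.6%. The rises of Eif4ebp1, Eif1a, Eif4e2, Eif3g, Eif3l, Eif3j2 and Eif5a2 held under every alternative tried and without each library in turn, and those of the other 8 members were each lost under at least 1.

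From 2-cell to 4-cell 1 member rose (Eif2b3) and 1 fell (Eif4e1b), against 1.58% and 1.82% of all genes. Yet both 4-cell libraries stood above both 2-cell libraries for 36 of the 52 members and below them for 5, against 30.7% and 22.1% of all genes, and 41 of the 52 members lay above the median of all genes. The median change was 1.19 for the members and 0.04 for all genes. The count of rises depended on single libraries. Without 2-cell replicate 2 there were 9, among them Eif3e (3.81), Eif2s2 (3.85) and Eif4e (3.46), against 10.9% of all genes. With quantile normalization there were also 9, of which 6 were eIF3 subunits, against 6.1% of all genes. It was 0 without either library of 4-cell or 8-cell, in the fit on 4 libraries or with weighted stages, and 16 members were higher at an unadjusted p under 0.05.

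**Figure D4:**
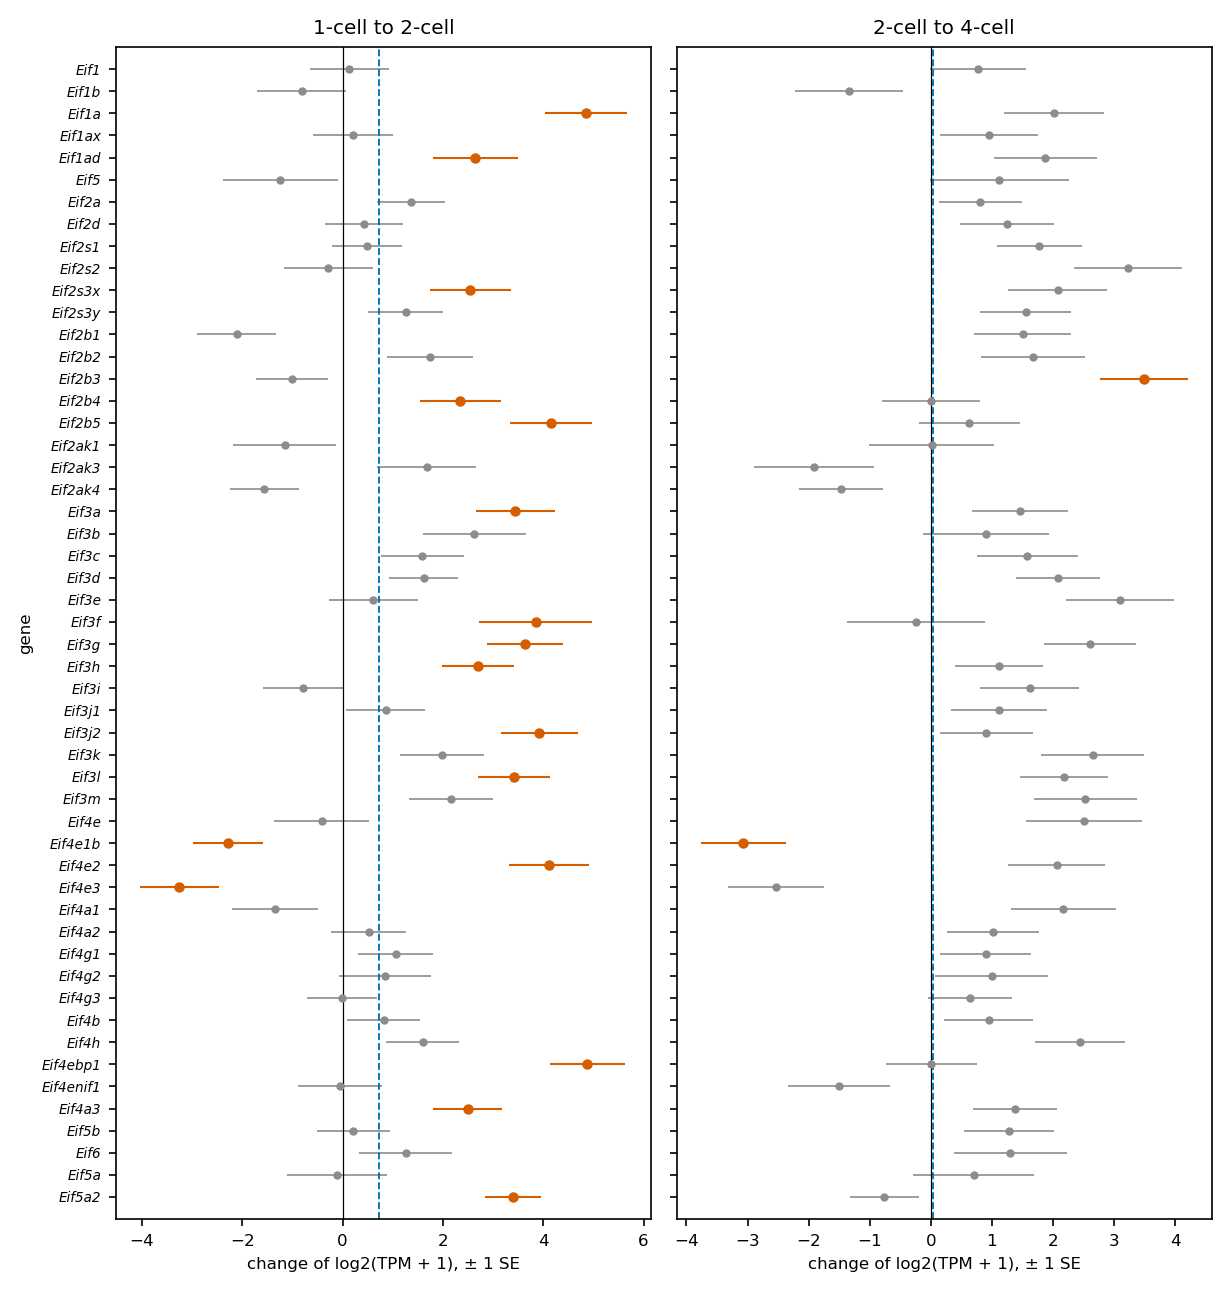
Change of log2(TPM + 1) with 1 SE for each of 52 genes from 1-cell to 2-cell (left) and from 2-cell to 4-cell (right), with called genes in orange, the others in gray and a dashed line at the median of all 10000 genes (0.72 and 0.04). On the left 15 genes are called to the right of 0 and 2 to the left, and on the right most gray points lie to the right of the dashed line, with 1 gene called on each side of 0.

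From 4-cell to 8-cell 0 members rose and 1 fell (Eif4e3), against 0.77% and 0.9% of all genes. Both libraries moved up for 10 members and down for 19, against 22.9% and 47.3% of all genes. The spread at these 2 stages was the smallest of the series, and with stages weighted by their spread 9 members fell and Eif4ebp1 alone of the members rose (2.45), against 28.2% and 11% of all genes under the same weights. The falls then included Eif4enif1 (-2.22), Eif3j2 (-1.91), Eif4e (-1.51) and Eif4g2 (-1.38). In the fit over 12 libraries without weights 1 member was higher and 4 lower at an unadjusted p under 0.05.

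From 8-cell to blastocyst 0 members rose and 0 fell with limma, against 1.51% and 1.49% of all genes, and 0 were higher and 5 lower at an unadjusted p under 0.05. Both blastocyst libraries stood above both 8-cell libraries for 1 member and below them for 18, against 19.7% and 28.1% of all genes. The median change was -0.50 for the members and -0.14 for all genes, and 15 of the 52 members lay above the median of all genes. Eif4e was the only member that passed when stages were weighted by their spread, lower in blastocysts, against 2.92% of all genes called lower.

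Oocytes and sperm were compared as the gametes that form the embryo. Of the 52 members, 9 were higher in oocytes and 13 lower, against 17.4% and 36.2% of the 10735 genes tested with the sperm libraries included, so the share called higher was close to that of all genes and the share called lower was below it. Both oocyte libraries stood above both sperm libraries for 16 members and below them for 22, against 26.3% and 49.4% of all genes. The median change was -0.21 for the members and -0.90 for all genes. With quantile normalization, which moves the median of all genes to 0.01, the median of the members turned to 0.30, and 12 were higher and 8 lower, against 26.8% and 26.6% of all genes. Without oocyte replicate 1 and with no such normalization, 5 were higher, against 14.7% of all genes.

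The largest differences in favor of the oocyte on the log2(TPM + 1) scale were those of Eif2b1 (6.14 and 1.5 TPM in sperm, 1059 and 1665 TPM in oocytes, change 8.30, SE 0.859, adjusted p = 1.4e-06) and Eif4e3 (22.7 and 122 TPM in sperm, change 6.62, SE 0.91, adjusted p = 2.03e-05). Eif2s2 and Eif4enif1 followed. Eif2s2 differed by 3.67 (SE 0.954, adjusted p = 0.00399) and lost the call without sperm replicate 2 (adjusted p = 0.0558) or oocyte replicate 1 (adjusted p = 0.0575). Eif4enif1 differed by 3.28 (SE 0.849, adjusted p = 0.00381) and lost it without oocyte replicate 2 (adjusted p = 0.0836).

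The largest differences in favor of sperm on the same scale were those of Eif3f, Eif4h, Eif2s3y and Eif3g. Eif3f stood at 1832 and 215 TPM in sperm and at 11.6 and 1.85 TPM in oocytes (change -6.71, SE 1.22, adjusted p = 0.000247), and its single merged transcript held the whole coding sequence and was seen in the sperm long-read pool. Eif4h stood at 26.2 and 24.2 TPM in sperm (change -4.23, SE 0.754, adjusted p = 0.00021). Eif2s3y stood at 56.8 and 2.36 TPM in sperm (change -3.80, SE 1.04, adjusted p = 0.00565), and lost the call without sperm replicate 1 (adjusted p = 0.138). Eif3g stood at 44.0 and 56.1 TPM in sperm (change -3.79, SE 0.786, adjusted p = 0.000739). Sperm replicate 1, in which Eif3f and Eif2s3y were far higher than in replicate 2, also held the higher level of epididymis and blood markers (2210 against 508 TPM), whose part in these results was not tested. The blastocyst markers ran the other way, at 170 TPM in sperm replicate 1 and 732 TPM in replicate 2.

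Isoforms were compared as shares of the TPM of their gene, for 90 member transcripts in 30 genes, and an isoform was counted as changed where the adjusted p was under 0.05 and the mean share differed by more than 10 percentage points. From 1-cell to 2-cell 10 member isoforms of 7 genes changed their share, against 11.4% of the 10407 isoforms tested, and from 4-cell to 8-cell 2 did, against 0.192%. In a gene with 2 tested isoforms the changes mirror each other. The paired calls of Eif3c at both steps and of Eif4h at the first are therefore a single change each, and all isoforms were counted in this way. None was called from oocyte to 1-cell (background 0.0865%), from 2-cell to 4-cell (0.144%) or from 8-cell to blastocyst (0.192%), where 4, 7 and 6 passed at an unadjusted p under 0.05.

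Eif3c, a core eIF3 subunit, showed the largest change. It has 2 merged transcripts, the annotated 21-exon transcript of 3408 bases with the whole coding sequence and an 8-exon transcript of 869 bases that starts at the same position and ends inside an annotated exon. The whole transcript made 6.03% and 5.37% of Eif3c TPM in oocytes, 11.0% and 16.7% at 1-cell, 100% at 2-cell in both libraries, and 99.7% and 100% at 4-cell. It made 32.4% and 52.1% at 8-cell and 72% and 55.2% in blastocysts. Its share rose from 1-cell to 2-cell (13.8% to 100%, log2 ratio change 8.88, SE 0.661, adjusted p = 0.000565) and fell from 4-cell to 8-cell (99.8% to 42.3%, log2 ratio change -8.10, SE 0.661, adjusted p = 0.002). The first call held without each of the 12 libraries in turn, and the second was lost without 4-cell replicate 2 (adjusted p = 0.0528). Counting only the whole transcript, Eif3c stood at 0.951 and 3.44 TPM in oocytes and at 107 and 74.5 TPM at 2-cell. The long-read pools of oocyte, 1-cell and blastocyst held Eif3c transcripts but none with its whole coding sequence, although the whole transcript made most of the Eif3c TPM in blastocysts.

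Eif5 and Eif4h changed in their use of the coding exons printed above, in opposite directions. The Eif5 isoform without its 162-base exon made 58.7% and 90.8% of Eif5 TPM in oocytes, 78.4% and 76.8% at 1-cell, 11.5% and 17.6% at 2-cell and 6.12% and 6.01% at 4-cell. Its share fell from 1-cell to 2-cell (log2 ratio change -4.36, SE 1.22, adjusted p = 0.0398). The call was lost without any of 6 libraries, those of 1-cell, 2-cell and 4-cell, or with a pseudocount of 0.1 (adjusted p = 0.0597). It was also lost with only the 4 libraries of the comparison fitted (adjusted p = 0.0717) or with stages weighted by their spread (adjusted p = 0.189). In sperm this isoform made 8.69% and 15.4%.

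The Eif4h isoform without its 60-base exon made 25.7% and 31.4% at 1-cell, 87.5% and 74.1% at 2-cell, 79.3% and 82.4% at 4-cell and 45.1% and 52.9% in blastocysts. Its share rose from 1-cell to 2-cell (log2 ratio change 2.78, SE 0.553, adjusted p = 0.0106). The call was lost without 1-cell replicate 1, and also with only the 4 libraries of the comparison fitted (adjusted p = 0.133). In oocytes the shares were 100% and 39.3%, at a gene level under 1 TPM. Both Eif4h isoforms are annotated and hold a whole coding sequence.

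In Eif4a2, 2 isoforms took a larger share at the 2-cell stage. An 11-exon isoform without the 140-base exon printed above was at 0% and 0.00221% of Eif4a2 TPM at 1-cell and at 18.8% and 19.6% at 2-cell (log2 ratio change 3.42, SE 0.885, adjusted p = 0.0293), and at 11.1% and 1.37% at 4-cell. It is not the only isoform without this exon. Isoforms of 10 exons match Eif4a2-223, which is not among the annotated transcripts that hold the exon. The 11-exon isoform is a new combination of exons with no whole annotated coding sequence. Its call was lost without any library of 1-cell or 2-cell. It was also lost with only the 4 libraries of the comparison fitted (adjusted p = 0.0889) and with stages weighted by their spread (adjusted p = 0.2). The other isoform has an added exon of 107 bases at chr16:23112351-23112457, in which the annotated coding sequence ends after 7 bases, and rose from 6.24% and 3.1% at 1-cell to 15.5% and 22.3% at 2-cell (log2 ratio change 1.75, SE 0.463, adjusted p = 0.0317). Its call was lost without either library of 1-cell, 4-cell or 8-cell or without 2-cell replicate 2. It was also lost with only the 4 libraries of the comparison fitted (adjusted p = 0.254) and with stages weighted by their spread (adjusted p = 0.113).

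In Eif4g2, 1 of 3 isoforms with a whole coding sequence changed its share. This isoform of 22 exons made 53.7% and 42.5% of Eif4g2 TPM at 1-cell and 0.00138% and 1.83% at 2-cell, and its share fell (log2 ratio change -5.61, SE 1.11, adjusted p = 0.0106). The call was lost without 1-cell replicate 1, and also with only the 4 libraries of the comparison fitted (adjusted p = 0.0596). The isoform with the same coding sequence that starts 514 bases further downstream stood at 14.6% and 28.9% at 1-cell and at 59.8% and 66.3% at 2-cell (adjusted p = 0.0947). The third, of 21 exons, which starts at the same base as the called isoform, stood at 25.7% and 23.6% and then at 36.2% and 23.3%. The 1-cell and 2-cell libraries of the downstream isoform did not overlap, and shares summed by start site were not tested. The called isoform stood at 19.1% and 15.0% at 4-cell and at 11.9% and 63.5% in blastocysts.

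The remaining called isoforms were those of Eif4g1 and Eif4e3. A 10-exon Eif4g1 transcript of 1622 bases with no whole coding sequence made 75.3% and 82.2% of Eif4g1 TPM at 1-cell and 54.5% and 27.3% at 2-cell (log2 ratio change -2.34, SE 0.642, adjusted p = 0.0368). That call was lost with the replicate block, and without either library of 1-cell, 4-cell or 8-cell or without 2-cell replicate 2. It was also lost with a pseudocount of 0.1, with only the 4 libraries of the comparison fitted and with stages weighted by their spread (highest adjusted p = 0.204). The whole-coding Eif4e3 transcript went from 90.0% and 89.2% to 77.5% and 71.0% (log2 ratio change -1.59, SE 0.447, adjusted p = 0.0406). The call was lost without 9 of the 12 libraries, the exceptions being both oocyte libraries and 2-cell replicate 1. It was also lost with the replicate block, a pseudocount of 0.1, only the 4 libraries of the comparison fitted or stages weighted by their spread (highest adjusted p = 0.294).

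**Figure D5:**
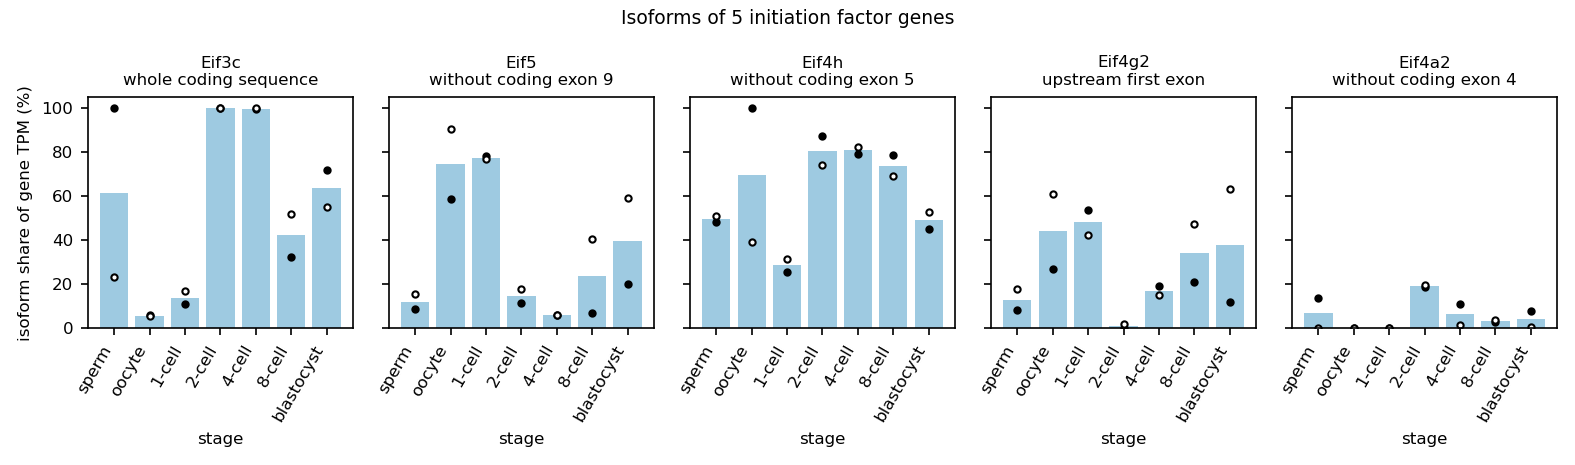
Share of gene TPM in percent at each stage for 1 isoform each of Eif3c, Eif5, Eif4h, Eif4g2 and Eif4a2, with a bar at the mean of 2 libraries and a point per library (replicate 1 filled, replicate 2 open). The whole Eif3c transcript is under 17% in oocyte and 1-cell libraries and at 100% at 2-cell, and the Eif5 isoform without exon 9 is at 77% to 79% at 1-cell and at 18% or less at 2-cell.

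The share of a gene's TPM that came from transcripts with the whole annotated coding sequence differed between members. Of the members with at least 1 TPM in both libraries of a stage, most were over 50% in both libraries (33 of 42 in oocytes, 43 of 52 at 4-cell), and 8 or 9 members per stage were under 50% in both. Eif5b was such a gene at every stage: a 5-exon transcript of 695 bases made 80.4% and 90.7% of its TPM in oocytes and 70.2% and 68.3% at 4-cell, so its whole transcript of 4284 bases made 19.6% and 9.30%, then 29.8% and 31.7%. For Eif2s3x, the whole transcript made 41.0% and 58.5% in oocytes and 38.0% and 28.1% at 4-cell, beside a single-exon transcript of 472 bases. Eif4g1 had a whole-coding share of at most 1.26% in any library, and Eif4g3, Eif2ak1, Eif2ak3, Eif2ak4 and Eif4enif1 had no such transcript. The levels of Eif5b, Eif4g3, Eif2ak1, Eif2ak3, Eif2ak4 and Eif4enif1 thus rest mostly on partial transcripts. They cannot be set beside those of genes such as Eif2b1, whose whole transcript made 91.1% or more of its TPM in each library from oocyte to blastocyst. The level of Eif2s3x also rests largely on transcripts other than its whole one. For Eif4g1 the low share does not mean that all other transcripts are partial. An Eif4g1 transcript of 30 exons and 5256 bases has 29 introns, all annotated, but matches no single annotated coding sequence.

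In the long-read pools, 28 of the 52 genes had a transcript of their own in oocytes and 28 at 1-cell, against 43 at 2-cell, 45 at 4-cell, 44 at 8-cell, 44 in blastocysts and 34 in sperm. The number of all protein-coding genes with a long-read transcript moved the same way, from 3471 in oocytes and 3342 at 1-cell to 4308 at 2-cell and 4272 at 4-cell. A transcript with the whole coding sequence was seen for 14 genes in the oocyte pool, 14 at 1-cell, 34 at 2-cell and 38 at 4-cell. Eif4e3 had 2 long-read transcripts in the oocyte pool and 3 at 1-cell, all without the whole coding sequence, which was seen at 2-cell only. Eif4e1b was seen in the 1-cell pool only. These are 1 pool per stage and carry no test.

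Genes that work beside the initiation factors were counted in the same way. Of 35 such genes, 33 were tested, and from 1-cell to 2-cell 10 rose and 3 fell, near the 26.1% and 6.2% of all genes. Pabpc1, the main poly(A)-binding protein, which bridges the mRNA tail to eIF4G, stood at 1.67 and 3.33 TPM at 1-cell and at 236 and 240 TPM at 2-cell, and rose by 6.14 (SE 0.7, adjusted p = 0.000101). Pabpc1l, its oocyte form, stood at 102 and 35.7 TPM and then at 2.22 and 18.8 TPM, and fell by 2.94 (SE 0.839, adjusted p = 0.0158). Cpeb1, which controls the polyadenylation of maternal mRNA, fell by 2.59 (SE 0.904, adjusted p = 0.041), and Ppp1r15b, which directs a phosphatase to eIF2, rose by 5.34 (SE 0.715, adjusted p = 0.000199). These named partners were chosen after their values were seen. Eef1g, a subunit of an elongation factor, rose from 1-cell to 2-cell and again from 2-cell to 4-cell.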

How the data were processed

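Per the labels and the study's methods, the authors mapped long reads of 1 pool per stage to mm10, merged the transcripts of all stages into 1 annotation, and quantified the short reads on it with Salmon. The deposited values are TPM per merged transcript and library, with no counts. The study states the number of reads per library, which is not used here, since reads per gene cannot be recovered from TPM. GSNAP, STAR and Cufflinks are also named in the submitters' processing notes. TPM values on the long-read transcripts of a single stage were not used, since they cannot be compared between stages.

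Merged transcripts were assigned to the GENCODE vM21 gene (mm10) with which they shared most same-strand exon bases. Gene TPM is the sum over its transcripts. The study names other GENCODE releases. Genes with at least 1 TPM in at least 2 of the 12 libraries from oocyte to blastocyst were fitted on log2(TPM + 1) with limma 3.58.1 in R 4.3.3 (stage means, trend), with Benjamini-Hochberg adjustment over all genes and a threshold of 0.05. Differences on this scale understate the change of low genes. Oocyte against sperm used 14 libraries. Isoforms were fitted as log2 of isoform TPM + 1 over the TPM of the gene's other isoforms + 1. An isoform held the whole coding sequence where it spanned all introns and both ends of an annotated one. Named were, per comparison, the up to 4 members with the largest called rise and fall, all paralog sets and the called isoforms; other members were named for their place in a complex after their values were seen. The 8-cell replicate numbers follow the sample titles, since file names number them the other way.

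Alternatives were a pseudocount of 0.1, no filter, at least 5 TPM, quantile normalization, stage weights (arrayWeights), a fit on the 4 libraries compared, a replicate block, assignment by a shared splice site, and leaving out each library. The members and gene lists were chosen with earlier results of these data known. On simulated data with 200 changed genes of 10000, a log2 change of 4 from 1-cell to 2-cell was recovered for 132 genes with 56 false calls, and a log2 change of 2 for 3 genes, so smaller changes mostly passed uncalled in that setting. In the data far more genes were called at this step (26.1% higher and 6.2% lower). The adjusted threshold is then less strict, so these rates cannot be carried over to it. The simulated threshold did not hold its error rate at the steps into and out of 2-cell. From 2-cell to 4-cell, a log2 change of 4 was recovered for 146 genes with 55 false calls. The other steps from oocyte to blastocyst had 4, 0 and 6 false calls. The median SD of all genes was 1.04 at 2-cell and 0.186 at 4-cell, and the fit pooled the spread. The share of false calls in the data was not computed. Python 3.11.15 with numpy 2.4.6, pandas 2.3.3 and matplotlib 3.10.9 was used.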

Additional observations from a re-analysis of the deposited data

How the results depend on the processing

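With 2 libraries per stage, counts of calls depended on the spread each fit assumed, and no call changed direction. Medians of lists did with quantile normalization: all members in oocyte against sperm from -0.21 to 0.30, eIF3 from oocyte to 1-cell from 0.31 to -0.19, and start site genes from 1-cell to 2-cell from 0.32 to -0.11. With stages weighted by their spread, the counts higher and lower were 9 and 0 from 1-cell to 2-cell, none in either direction (0 and 0) from 2-cell to 4-cell and 1 and 9 from 4-cell to 8-cell, with 1 lower from 8-cell to blastocyst, and changed isoforms numbered 5 at the first of these steps and 6 at the step from 4-cell to 8-cell. With the 4 libraries of a comparison fitted alone there were 0 lower from 1-cell to 2-cell, none in either direction (0 and 0) from 2-cell to 4-cell and 1 and 7 from 4-cell to 8-cell, and 2 and 4 changed isoforms. With quantile normalization 4 were lower from 1-cell to 2-cell, 9 higher and 2 lower from 2-cell to 4-cell, 0 lower from 4-cell to 8-cell and 8 lower in oocyte against sperm. With a pseudocount of 0.1, 0 were lower from 2-cell to 4-cell. Replicate numbers did not pair the libraries in the same way at every stage (correlations of same-numbered deviations from -0.547 to 0.479). The 2-cell deviations went with those of 4-cell (0.357) and against those of 8-cell (-0.374) and blastocyst (-0.547), while 8-cell went with blastocyst (0.479). The replicate block used the numbers as given, and a batch shared across stages under other numbers was not tested. With the replicate block 0 members were lower from 2-cell to 4-cell, and 0 also from 4-cell to 8-cell. Leaving out each library in turn gave 0 to 1 higher from oocyte to 1-cell (1 without either 2-cell library). From 1-cell to 2-cell it gave 8 (without 1-cell replicate 2) to 16 higher and 1 (without 1-cell replicate 1) to 3 lower. From 2-cell to 4-cell it gave 0 to 9 higher and 0 to 3 lower (9 and 3 without 2-cell replicate 2). From 4-cell to 8-cell it gave 0 to 1 higher and 0 to 2 lower, from 8-cell to blastocyst 0 to 1 lower, and in oocyte against sperm 5 (without oocyte replicate 1) to 10 higher. Between the 1-cell and 2-cell stages, changed isoforms numbered 2 (without 1-cell replicate 1) to 12. Between 2-cell and 4-cell they numbered 0 to 1, and between 4-cell and 8-cell 0 (without 4-cell replicate 2) to 2. Other causes of these differences were not tested. Of all counts and shares under an alternative, 265 equaled the main value or stayed within 1.5 times of it, 45 were weaker and 26 stronger. The 265 include counts that were 0 in both. The median share of whole-coding transcripts lay at its ceiling of 100% and could not show a change. TPM holds no counts, so the limits set by read depth were not computed.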
